A study of Schmidtea mediterranea with 50 samples.

Results

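The 150 transcripts described here stood highest in p53(RNAi) planarians at day 18 of treatment while they lay near control in chd4(RNAi) planarians at day 15. They were chosen from 35057 assembled transcripts by their measured values. RPKM is a read count scaled by transcript length and library size, and a difference here is the mean log2(RPKM + 0.5) of RNAi libraries minus that of control libraries of the same day. A transcript was kept with a mean of 2 RPKM or more over the 50 libraries, a p53(RNAi) difference of 0.8 or more at day 18, and a chd4(RNAi) difference between -0.4 and 0.4 at day 15. Of the 17616 transcripts at 2 RPKM or more, 213 met these limits, and the 150 with the largest p53(RNAi) difference were retained. The set was proposed as transcripts that rise late and in p53(RNAi) only. The word late does not describe the first call of 82 of the 150, which were called higher at day 9 and on every later sampled day to day 15. That count was 57 when only the compared groups were fitted. The 60 of them first called at day 9 had a median difference of 0.50 then and 1.03 at day 18, so much of their rise came later.

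The worms were Schmidtea mediterranea of the asexual CIW4 strain, a flatworm that carries dividing stem cells (neoblasts) through adult life. Tested worms ate bacteria making double-stranded RNA of p53 or of chd4, mixed with calf liver, on days 0, 3 and 6, and control worms ate unc-22 double-stranded RNA in the same way. Whole worms were collected at days 3, 6, 9, 12, 15 and 18 for p53(RNAi), at days 3 to 15 for chd4(RNAi) and at days 3 to 18 for control (the feedings ended at day 6). Each library came from 10 pooled worms and each group had 3 libraries labelled as biological replicates, except p53(RNAi) day 18, which had 2 (replicates 2 and 3). A whole-worm RNA level cannot tell fewer cells of a type from less RNA per cell.

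p53 is a transcription factor known in vertebrates as a tumour suppressor that acts in cell cycle arrest and cell death, and in planarians as a gene needed by neoblasts and their descendants. Chd4 is a chromatin remodelling ATPase of the NuRD complex, needed in planarians for neoblast descendants to differentiate. Of the members, 47 carry a description. Many of these encode proteins that move ions and small molecules across membranes or that handle nitrogen, and others encode uptake receptors, proteases and their inhibitors, and proteins that bundle actin. In animals the urea pathway joins ammonia and bicarbonate by carbamoyl-phosphate synthase, passes the product to ornithine by ornithine carbamoyltransferase to make citrulline, and turns citrulline to arginine by argininosuccinate synthase and argininosuccinate lyase.

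The depth of a library, worked out from the step size of its RPKM values, lay between 13.9 M and 26.3 M reads (M, mega). Both knockdowns showed in the targeted transcripts. p53 (SMED30026364) averaged 11.5 ± 0.44 RPKM in p53(RNAi) against 39.7 ± 0.76 RPKM in control at day 3 (SD, n = 3 each), and 1.64 ± 0.22 RPKM (n = 2) against 31.5 ± 0.79 RPKM (n = 3) at day 18. chd4 (SMED30024368) averaged 10.6 ± 0.91 RPKM in chd4(RNAi) against 38.6 ± 1.98 RPKM in control at day 15 (SD, n = 3 each). Marker lists of other cells had fallen by day 15. The study screened most of these genes in situ because it had called them lower in these same libraries. Their fall was thus largely set by that choice and is given as a description. In p53(RNAi) all 22 neoblast markers, all 43 markers of AGAT-1 mesenchymal cells, all 10 epidermal markers and all 26 gut markers were called lower, where 18.2% of all tested transcripts were. Their summed levels in p53(RNAi) against control at day 15 were 398 to 473 against 766 to 799 RPKM for neoblasts, 854 to 905 against 4506 to 5163 RPKM for AGAT-1 cells, 864 to 884 against 1450 to 1650 RPKM for epidermis, and 1787 to 2604 against 5430 to 6663 RPKM for gut. The neoblast list was not lower throughout, since at day 9 of p53(RNAi) 10 of its markers were called higher and 3 lower. The shares of all tested transcripts at day 9 were 12.3% and 11.5%. Among the markers with gene names, smedwi-1, AGAT-1, zpuf-6, vim-3 and nkx-2.2 averaged 63.1, 41.0, 196, 131 and 16.5 RPKM in p53(RNAi) at day 15, against 163, 207, 377, 152 and 69.1 RPKM in control. At day 12 of chd4(RNAi) the AGAT-1 and gut sums had fallen to 1533 to 1766 RPKM and 1108 to 1597 RPKM, against 5288 to 5516 RPKM and 5518 to 5970 RPKM in control. The epidermal sum was 1173 to 1238 RPKM against 1615 to 1633 RPKM. The neoblast sum had not fallen there, at 912 to 938 RPKM against 830 to 835 RPKM in control, while in p53(RNAi) at day 12 it was 528 to 744 RPKM. No marker of these lists was at 0 in all libraries and none is a member. The part of these losses in the members' differences was not tested.

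The values that chose the members are given here as a description. The day 18 difference in p53(RNAi) ran from 0.89 to 3.18 with a median of 1.03, and 5 members exceeded 2. Both p53(RNAi) libraries lay above all 3 control libraries in every member, which the choice itself favours. The p53(RNAi) libraries of day 18 differed from each other by a median of 0.19 on the log2 scale, and by more than 1 in 3 members, SMED30017639, SMED30013673 and SMED30004394. The chd4(RNAi) difference at day 15 ran from -0.37 to 0.40 with a median of 0.13, above 0 in 105 members. Because 213 transcripts met the limits, the ranking set the edge: SMED30011094, SMED30028908 and SMED30026600 entered at 0.893, 0.890 and 0.889, and SMED30027373, SMED30016919 and SMED30026759 stayed out at 0.889, 0.882 and 0.881. At the upper chd4(RNAi) limit SMED30033477, SMED30020342 and SMED30028977 entered at 0.399, 0.397 and 0.384, and SMED30029266, SMED30005837 and SMED30011564 stayed out at 0.401, 0.404 and 0.404. At the lower limit SMED30003603, SMED30013651 and SMED30017389 entered at -0.37, -0.36 and -0.35, and SMED30004520, SMED30010453 and SMED30030402 stayed out at -0.45, -0.46 and -0.46. At the limit of mean level SMED30030587, SMED30035874 and SMED30010285 entered at 2.07, 2.09 and 2.10 RPKM, and SMED30012570, SMED30026798 and SMED30022330 stayed out at 1.93, 1.84 and 1.77 RPKM.

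The question of when the members rose was asked with p53(RNAi) against control at days 3 to 15. These libraries entered the choice through the mean level over all 50 libraries, and control day 15 also through chd4(RNAi). Their p53(RNAi) differences were not part of the rule. A transcript was called at a Benjamini-Hochberg adjusted p under 0.05 in limma's moderated test over 25079 tested transcripts, and all 150 members were among those tested. No member was called higher at day 3, where 0.0797% of all tested transcripts were. The count was 23 members (15.3%) at day 6 against 1.08% of all, 91 (60.7%) at day 9 against 12.3%, 108 (72.0%) at day 12 against 15.0%, and 124 (82.7%) at day 15 against 16.2%. Among the 17616 transcripts at 2 RPKM or more, from which the members came, the share called higher was 1.43%, 16.5%, 19.4% and 21.1% at days 6, 9, 12 and 15. The median member differed from control by -0.03, 0.11, 0.36, 0.50 and 0.68 at these days, beside a median over all tested transcripts within 0.01 of 0 on each. Members called lower numbered 1, 0, 2, 1 and 1 over the same days, where 0.694%, 2.15%, 11.5%, 13.4% and 18.2% of all were.

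**Figure D1:**
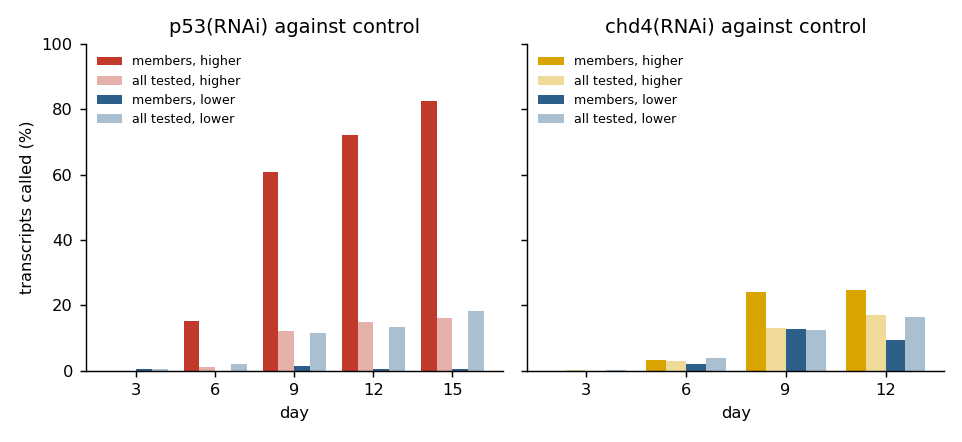
Percent of transcripts called higher or lower (limma, adjusted p under 0.05) by day, for the 150 members (solid bars) and for all 25079 tested transcripts (pale bars), in p53(RNAi) (left) and chd4(RNAi) (right) against control. The members' share called higher in p53(RNAi) was 15.3% at day 6 and 82.7% at day 15, while in chd4(RNAi) it was 24.7% at day 12 beside 17.2% of all.

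The growth of the difference was tested directly as the p53(RNAi) difference at day 15 minus that at day 3. It was called higher in 109 members (72.7%) and lower in none, where 9.37% and 11.2% of all tested transcripts were, and its median over the members was 0.71. The 41 members that did not pass had a median of 0.31, and 36 of them had a value above 0.

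The first day from which a member was called higher on every sampled day to day 15 split the members into classes. There were 22 members from day 6, 60 from day 9, 22 from day 12 and 20 from day 15, and 26 were in none of these. The member called at day 6 outside the first class, SMED30010285, was not called at day 9. Of the 26, 18 were called higher on no day from 3 to 15 and 8 were called on some earlier day but not at day 15. The class from day 6 had a median difference of 0.64 at day 6, 1.14 at day 9, 1.28 at day 12, 1.48 at day 15 and 1.45 at day 18. The class from day 9 stood at 0.50 at day 9, 0.75 at day 15 and 1.03 at day 18. The 26 members with no first day stood at 0.18 at day 15 and 1.00 at day 18, and their median level over all libraries was 3.57 RPKM, against 34.9 RPKM in the class from day 6. Descriptions were given for 13 of 22, 23 of 60, 5 of 22, 2 of 20 and 4 of 26 members of the classes in that order.

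**Figure D2:**
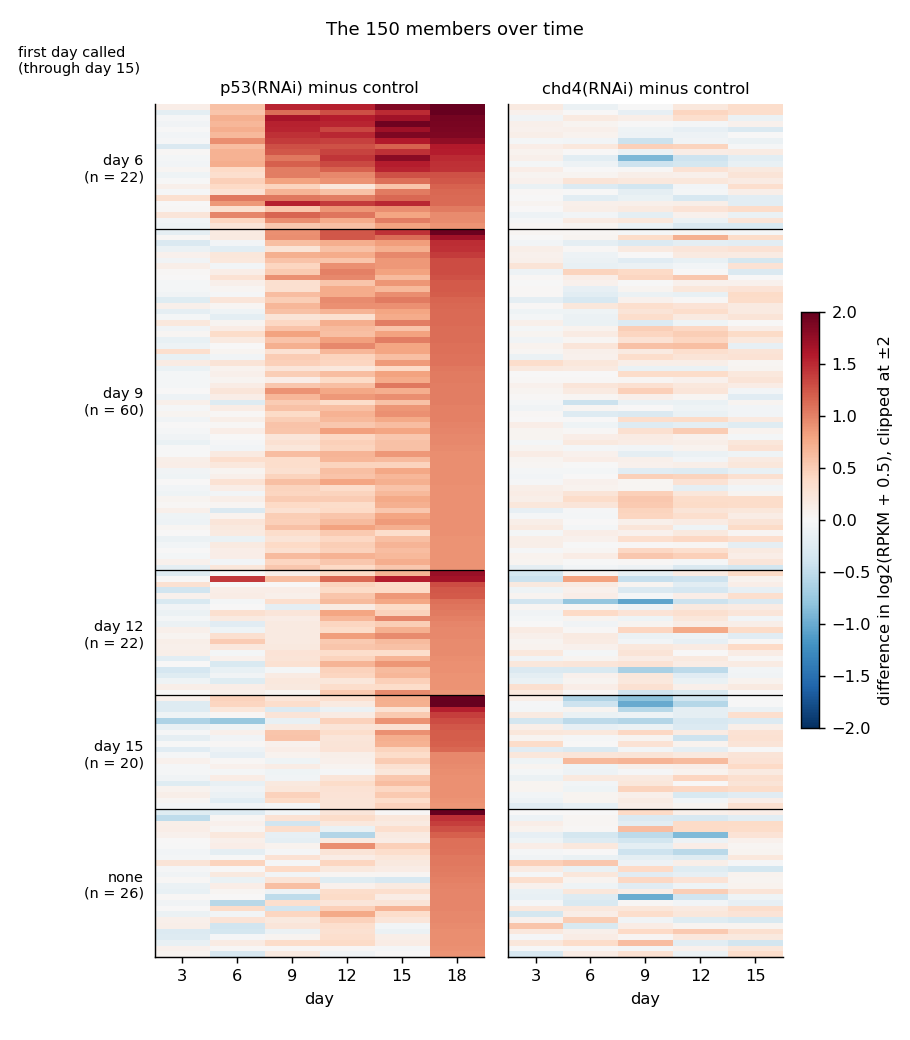
Difference from control in log2(RPKM + 0.5) for each of the 150 members (rows) at each day, in p53(RNAi) (left) and chd4(RNAi) (right), with rows grouped by the first day from which the member was called higher through day 15. Red is higher than control and blue is lower, clipped at 2. The 22 rows from day 6 are red from that day on, while the 26 rows marked none are red mainly at day 18.

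**Figure D3:**
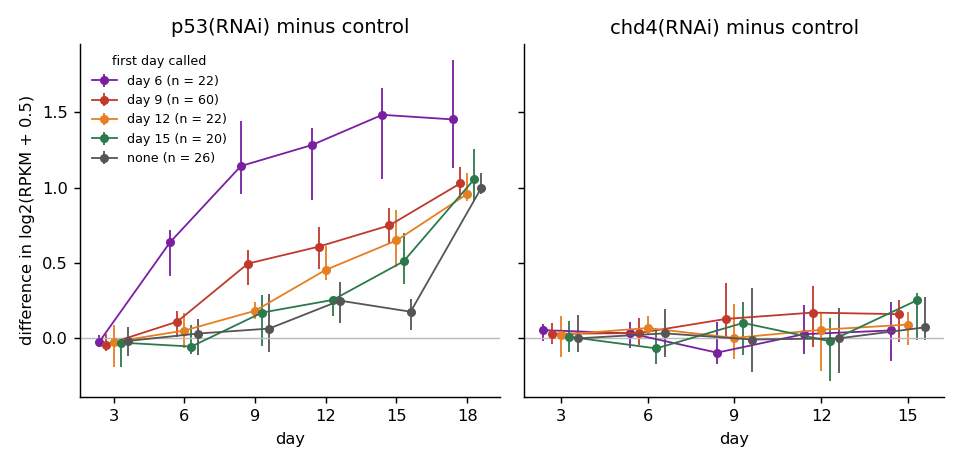
Median difference from control by day for the members of each first-day class in p53(RNAi) (left) and chd4(RNAi) (right). Points are medians over members, bars run from the lower to the upper quartile of the members, and points are shifted sideways to separate them. The class from day 6 levels off near 1.5 from day 15, and the other classes end near 1 at day 18.

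Enzymes of nitrogen handling stood in the class from day 6, all 4 of those among the members. Ornithine carbamoyltransferase (SMED30028596), which makes citrulline, had 57.1, 55.9 and 58.3 RPKM in p53(RNAi) at day 6, against 30.1, 33.6 and 29.4 RPKM in control. At day 9 it had 96.1, 98.2 and 89.3 RPKM against 35.1, 30.2 and 30.1 RPKM, and at day 18 it was back to 58.2 and 66.2 RPKM against 28.3, 29.6 and 26.8 RPKM. No p53(RNAi) library overlapped control from day 6 on, and the highest levels were those of day 9. The difference was 1.56 ± 0.07 (SE, limma adjusted p = 1.51e-19) at day 9 and 1.13 at day 18.

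Carbamoyl-phosphate synthase (SMED30029235), the enzyme that brings ammonia into the urea pathway, had 154, 159 and 162 RPKM in p53(RNAi) at day 15, against 54.7, 50.2 and 54.3 RPKM in control, a difference of 1.57 ± 0.07 (SE, limma adjusted p = 2.55e-21). In chd4(RNAi) at day 12 it had 49.5, 45.7 and 49.1 RPKM against 62.2, 61.8 and 59.8 RPKM in control, all lower, with a difference of -0.35 ± 0.07 (SE, adjusted p = 4.37e-05). Delta-1-pyrroline-5-carboxylate synthase (SMED30005571), which starts proline and ornithine synthesis from glutamate, had 287, 288 and 293 RPKM in p53(RNAi) at day 9 against 131, 124 and 112 RPKM in control, a difference of 1.24 ± 0.08 (SE, adjusted p = 8.71e-16). Adenosylhomocysteinase B (SMED30028497), which clears the product of methylation reactions, moved less, by 0.40 at day 6, 0.45 at day 9, 0.23 at day 12 and 0.56 at day 15. Its call at day 12 was lost without any of 5 single libraries (values from 0.20 to 0.25). Median-ratio scaling (0.21) or no filter on low values (0.23) lost it too. Its place in the class from day 6 thus depends on these libraries and settings.

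The other transcripts of the nitrogen list were followed too, since the pathway's later enzymes are not members. The list held 17 described transcripts, and descriptions were given by the study only for transcripts it had called changed, so that the list is not a full pathway. At day 15 of p53(RNAi) 11 were called higher and 5 lower, beside 16.2% and 18.2% of all tested transcripts, with a list median of 0.72. Argininosuccinate synthase (SMED30011140) had 15.3, 14.0 and 15.4 RPKM in p53(RNAi) at day 15 against 48.2, 43.9 and 41.5 RPKM in control, a difference of -1.55 ± 0.08 (SE, adjusted p = 3.85e-19), and was called lower from day 3 on. Argininosuccinate lyase (SMED30030034) had 17.3, 19.1 and 18.2 RPKM against 38.0, 33.7 and 35.6 RPKM, a difference of -0.96 ± 0.06 (SE, adjusted p = 9.70e-16), with -0.65 already at day 3 (adjusted p = 5.64e-09). Argininosuccinate synthase is also 1 of the 43 AGAT-1 mesenchymal markers, of which 24 were called lower at day 3 and all 43 at day 15. Argininosuccinate lyase is in none of the marker lists. The part of that cell type's loss in either value was not tested.

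A pair of ornithine aminotransferase transcripts, SMED30012193 and SMED30023510, which link ornithine to proline and glutamate, lay outside the set because their chd4(RNAi) differences at day 15 were 0.43 and 0.42. Both were called higher from day 6 in p53(RNAi), with 1.06 ± 0.08 and 1.13 ± 0.08 (SE) at day 9. Reads of these similar transcripts may have been split between them. The 3 glutamine synthetase transcripts did not all move together at day 15, with SMED30031855 called higher at 0.75 and SMED30029103 called lower at -0.74. At day 18 SMED30029103 stood at 0.47. SMED30014581 was not called at day 15 (-0.24). Its levels there were 0.09 to 0.37 RPKM, below the added 0.5, so that value says little about its movement.

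**Figure D4:**
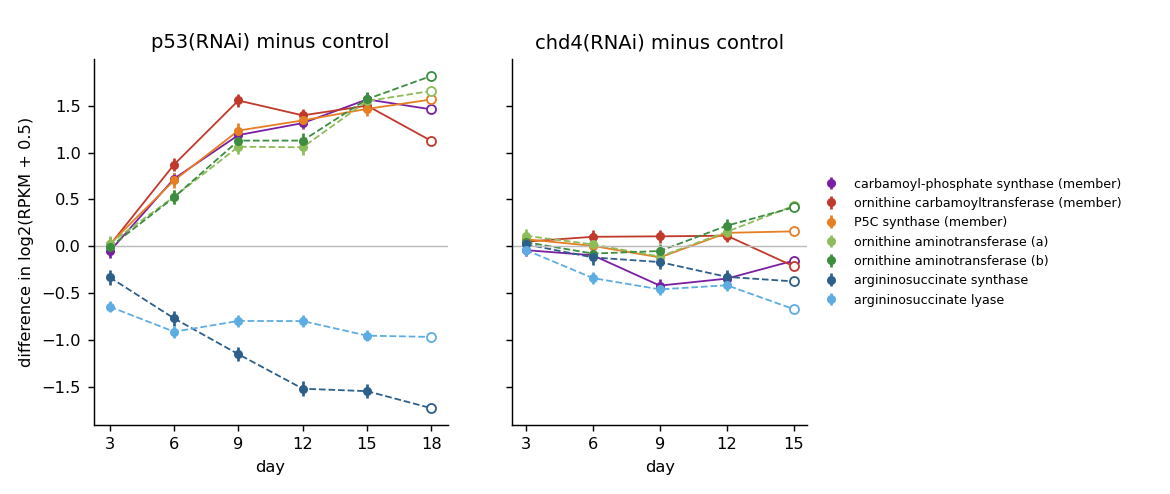
Difference from control in log2(RPKM + 0.5) by day in p53(RNAi) (left) and chd4(RNAi) (right) for members (solid lines) and other transcripts (dashed lines) of ornithine and urea metabolism. Bars are the standard errors of the fit. Open circles are the days that chose the members and carry no error. The ornithine carbamoyltransferase line peaks at 1.56 at day 9, and the argininosuccinate synthase line ends at -1.73 at day 18.

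Ion transporters made the largest described group, with 10 members, 9 of them called higher at day 9 and 9 at day 15 in p53(RNAi), where 12.3% and 16.2% of all tested transcripts were. Over the 36 described transcripts of that list 16 were called higher and 17 lower at day 15 with a median of -0.04, so the members are its rising portion by choice. Sulfate transporter (SMED30009861) had 6.53, 8.37 and 6.02 RPKM in p53(RNAi) at day 9 against 3.01, 2.64 and 3.08 RPKM in control, and 11.3 and 14.1 RPKM at day 18 against 2.23, 2.70 and 2.21 RPKM. Its difference at day 9 was 1.12 ± 0.12 (SE, limma adjusted p = 2.27e-09). Sodium/potassium/calcium exchanger 5 (SMED30006161) had 31.3, 33.6 and 38.5 RPKM in p53(RNAi) at day 6 against 18.5, 18.4 and 16.5 RPKM, and its difference of 0.93 ± 0.09 (SE, adjusted p = 1.95e-09) ranked behind those of SMED30010285, SMED30006435 and SMED30007255 among the members at that day.

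The sodium pump, which exchanges sodium for potassium at the cost of ATP, was present with its alpha subunit (SMED30024527) and 2 transcripts of beta subunits. The alpha subunit and the beta-1 subunit SMED30010123 were called from day 6, with differences of 0.93 and 1.28 at day 15. The other beta subunit transcript, SMED30028977, had 4.70, 3.55 and 4.34 RPKM in p53(RNAi) at day 15 against 2.54, 2.28 and 2.37 RPKM, a difference of 0.69 ± 0.15 (SE, adjusted p = 0.00022), and 6.38 and 8.73 RPKM at day 18 against 1.47, 2.39 and 1.97 RPKM. Its call at day 12 (0.40) was lost without any of 5 libraries, with values from 0.36 to 0.42. A potassium channel of the KQT family (SMED30010619), plasma membrane calcium-transporting ATPase 3 (SMED30001808) and the band 3 anion transport protein (SMED30028425), which trades chloride for bicarbonate in vertebrates, stood at 0.71, 0.88 and 0.74 at day 15. At day 9 the channel stood at 0.26 and band 3 at 0.13. These calls were lost without p53(RNAi) day 9 replicate 1, at 0.22, and without p53(RNAi) day 9 replicate 2, at 0.11. The sodium bicarbonate transporter-like protein (SMED30017389) differed, since it was called higher at day 9 (0.40) and then stood at 0.19 and 0.15 at days 12 and 15.

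Carriers of organic solutes included an oxalate:formate antiporter homolog (SMED30011135), a name that comes from a bacterial exchanger of these acids. It had 169, 187 and 172 RPKM in p53(RNAi) at day 9 against 64.5, 60.4 and 56.8 RPKM in control, while chd4(RNAi) libraries had 60.9, 62.1 and 57.2 RPKM. The chd4(RNAi) values overlapped control and the p53(RNAi) values lay above both. Its difference in p53(RNAi) was 1.54 ± 0.08 (SE, limma adjusted p = 4.97e-18). The ileal sodium/bile acid cotransporter homolog (SMED30024185) had 32.0, 34.2 and 31.2 RPKM in p53(RNAi) against 15.8, 15.8 and 15.2 RPKM in control at day 9. Solute carrier family 22 member 16 (SMED30028480), a carnitine carrier in humans, stood at 0.67 at day 9 and 0.91 at day 15. The carrier of activated sulfate (PAPS) into the Golgi, SMED30011209, which the words of its description put in both transporter lists, stood at 0.70 and 0.97. Over the 45 described transcripts of the organic list, 14 were called higher and 28 lower at day 15, with a median of -0.47. Among all tested transcripts 16.2% were called higher and 18.2% lower.

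The 3 members that are metal transporters were called from day 9, where 12.3% of all tested transcripts were called higher. Of the 10 described transcripts of that list, 4 were called higher and 2 lower at day 9, and 6 higher and 4 lower at day 15. Metal tolerance protein 5 (SMED30003881), of a family that moves zinc and manganese out of the cytosol, had 20.4, 17.5 and 15.4 RPKM in p53(RNAi) at day 12, 12.7, 12.3 and 11.5 RPKM in chd4(RNAi), and 6.91, 7.20 and 7.59 RPKM in control. The 3 groups did not overlap, and p53(RNAi) exceeded control by 1.23 ± 0.09 and chd4(RNAi) exceeded control by 0.71 ± 0.09 (SE, adjusted p = 2.44e-14 and 1.54e-08 in limma). Zinc transporter ZIP14 (SMED30029625), which brings zinc and iron into cells, and metal transporter CNNM4 (SMED30031752), tied to magnesium transport in vertebrates, stood at 0.92 and 0.80 at day 15 of p53(RNAi). CNNM4 was called at 0.50 in chd4(RNAi) at day 12 too, and ZIP14 was not (0.03).

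**Figure D5:**
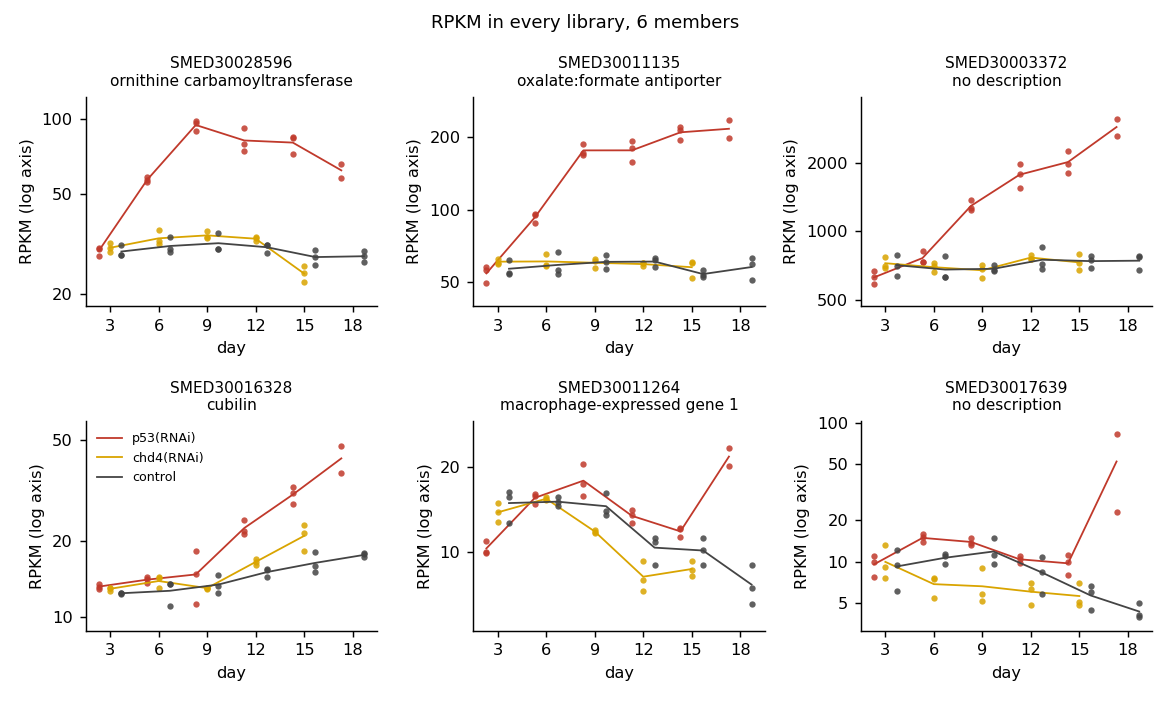
RPKM in every library (points) and the group means (lines) by day for 6 members, in p53(RNAi), chd4(RNAi) and control, on log axes that do not start at 0. Ornithine carbamoyltransferase peaks at day 9 in p53(RNAi), cubilin climbs from day 12, and SMED30017639 and macrophage-expressed gene 1 step up at day 18.

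The 22 members of the class from day 6 were tied at 4 days called higher, and the 6 of them with the largest day 9 difference were SMED30005208, ornithine carbamoyltransferase, the oxalate:formate antiporter homolog, SMED30002437, SMED30014006 and SMED30003923. The members of these given by number alone carry no description. SMED30002437 had 35.8, 32.7 and 29.6 RPKM in p53(RNAi) at day 9 against 12.0, 10.6 and 10.3 RPKM in control, and 11.4, 11.5 and 9.77 RPKM in chd4(RNAi). Its p53(RNAi) difference was 1.53 ± 0.11 (SE, limma adjusted p = 3.56e-14). SMED30005208 had 13.3, 14.8 and 13.3 RPKM against 4.42, 4.38 and 3.47 RPKM, the largest day 9 difference among the members at 1.65 ± 0.11 (SE, adjusted p = 7.44e-15). SMED30003923 had 230, 282 and 249 RPKM against 97.4, 94.9 and 83.2 RPKM, and SMED30014006 had 17.7, 20.3 and 16.6 RPKM against 6.67, 5.66 and 5.66 RPKM.

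Over the 50 libraries SMED30003923 followed the antiporter homolog at a Pearson r of 0.995 with a ratio of mean levels of 0.68 (antiporter to SMED30003923), and pyrroline-5-carboxylate synthase followed both at 0.986. These values describe points that share libraries and groups. Reads that matched up to 5 sites were kept, and whether reads of these transcripts match each other was not tested. The same holds for SMED30007141 and the Kunitz inhibitor SMED30020210, at an r of 0.996 and a ratio of mean levels (inhibitor to SMED30007141) of 1.04.

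The 5 most abundant members in control were carboxypeptidase A1 (SMED30027223), a digestive exopeptidase in mammals, the Kunitz inhibitor SMED30020210, and SMED30007141, SMED30002357 and SMED30003372, which carry no description. Their control means were 1076, 875, 844, 754 and 717 RPKM. Carboxypeptidase A1 had 1652, 1422 and 1431 RPKM in p53(RNAi) at day 9 and 1494, 1441 and 1331 RPKM in chd4(RNAi), against 1060, 1026 and 948 RPKM in control. It was thus called higher in both knockdowns, at 0.57 ± 0.09 and 0.49 ± 0.09 (SE, limma adjusted p = 1.43e-05 and 8.43e-05). SMED30003372 had 1814, 2268 and 1985 RPKM in p53(RNAi) at day 15 against 781, 744 and 692 RPKM in control, and 2628 and 3144 RPKM at day 18 against 774, 781 and 673 RPKM. It was the most changed of the abundant members, at 1.45 ± 0.10 (SE, adjusted p = 1.69e-15) at day 15, and stood at 0.04 in chd4(RNAi) at day 12.

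Uptake receptors numbered 3 members, all called higher at day 15, where 16.2% of all tested transcripts were. All 7 described transcripts of that list were called higher at that day, with a median of 0.87, so the rise was not particular to the members. As only transcripts the study had called changed were described, this count does not speak for uptake receptors in general. Cubilin (SMED30016328) and amnionless (SMED30031417) form a receptor complex that takes up filtered proteins and vitamin B12 in the vertebrate kidney and gut, and Disabled (SMED30033010) belongs to a family of adaptors. Cubilin had 11.3, 18.2 and 14.7 RPKM in p53(RNAi) at day 9 against 12.4, 13.3 and 14.7 RPKM in control, and 27.9, 30.8 and 32.6 RPKM at day 15 against 16.0, 15.1 and 18.0 RPKM. The groups overlapped at day 9 and not at day 15, where the difference was 0.87 ± 0.10 (SE, limma adjusted p = 2.92e-09). Amnionless and Disabled stood at 0.38 and 0.42 at day 9 and at 0.92 and 1.02 at day 15. The other 4 transcripts of this list are macrophage mannose receptor homologs outside the set.

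Proteases and their inhibitors gave 3 and 4 members. Over all described transcripts of these lists, 6 of 18 proteases were called higher and 7 lower at day 15 with a median of 0.05, and 6 of 10 inhibitors were called higher and 1 lower with a median of 0.63. At that day 16.2% of all tested transcripts were called higher and 18.2% lower. Kallikrein-13 (SMED30007489) and calpain-5 (SMED30016560), a calcium-dependent protease, stood at 0.92 and 0.68 at day 9 of p53(RNAi). Calpain-5 was called from day 6 at 0.29, a call lost without p53(RNAi) day 6 replicate 2 (0.25). The Kunitz inhibitors SMED30034647 and SMED30020210 stood at 0.57 and 0.50 at day 9. The pregnancy zone protein homolog (SMED30020669) and the alpha-1-macroglobulin homolog (SMED30017845), broad protease traps in mammals, went the other way at day 9. Pregnancy zone protein had 25.1, 26.3 and 27.8 RPKM in p53(RNAi) at day 9, below all of the 35.9, 31.2 and 38.0 RPKM in control, a difference of -0.40 ± 0.09 (SE, adjusted p = 0.000452). At day 18 it had 78.8 and 100.3 RPKM against 34.2, 33.1 and 34.5 RPKM. Alpha-1-macroglobulin stood at -0.18 at day 9, 0.16 at day 12 and 0.39 at day 15. The day 9 call was lost without p53(RNAi) day 9 replicate 1 (-0.16), control day 9 replicate 1 (-0.17) or control day 9 replicate 3 (-0.15). The day 12 call was lost without p53(RNAi) day 12 replicates 1 (0.13) or 2 (0.16), or control day 12 replicates 1 (0.13) or 3 (0.18).

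Proteins of the cytoskeleton numbered 4, in a list of 12 described transcripts of which 8 were called higher and 2 lower at day 15. The shares of all tested transcripts at that day were 16.2% and 18.2%. Plastin-2 (SMED30001402) and fimbrin (SMED30012493) are actin-bundling proteins of the same family, and both stood close together, at 0.91 and 0.74 at day 12 and 0.87 and 0.93 at day 15 of p53(RNAi). Septin-7 (SMED30022889), a filament-forming GTPase, and whirlin (SMED30006669), a scaffold of stereocilia in vertebrates, stood at 0.79 and 0.56 at day 15. Septin-7 was called at day 9 at 0.31, which was lost without p53(RNAi) day 9 replicate 1 (0.29) or control day 9 replicate 3 (0.26), and the day 12 call of whirlin (0.37) was lost without control day 12 replicate 3 (0.29).

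The remaining described members fall in no list. P2X purinoceptor 4 (SMED30029013), an ATP-gated cation channel, had 26.8, 31.8 and 29.8 RPKM in p53(RNAi) at day 15 against 8.85, 8.40 and 6.94 RPKM in control, at 1.81 ± 0.10 (SE, limma adjusted p = 1.3e-17). In chd4(RNAi) at day 9 it had 4.28, 5.26 and 4.80 RPKM against 9.38, 9.15 and 9.44 RPKM in control. The transcript thus lay on opposite sides of control in the knockdowns, though on different days. The control libraries of day 15 also entered the choice through chd4(RNAi). Superoxide dismutase (SMED30018398), which removes superoxide, had 25.1, 22.3 and 23.1 RPKM in p53(RNAi) at day 9 against 15.5, 16.0 and 14.7 RPKM, and stood at 0.84 at day 15. Dihydrofolate reductase (SMED30007059), sepiapterin reductase (SMED30035504), which act on folate and biopterin, and mitochondrial enolase superfamily member 1 (SMED30033140) stood at 0.86, 0.65 and 1.10 at day 15. The phytanoyl-CoA dioxygenase domain protein (SMED30028588), the ubiquitin ligase RNF167 (SMED30022428), the glycogen-targeting subunit 3E of protein phosphatase 1 (SMED30019962) and the acid sphingomyelinase-like phosphodiesterase (SMED30031509) stood at 0.73, 0.74, 0.89 and 0.95. The day 9 call of sepiapterin reductase (0.32) was lost without p53(RNAi) day 9 replicate 1 (0.22), control day 9 replicate 1 (0.31) or control day 9 replicate 3 (0.24), and that of RNF167 (0.26) without p53(RNAi) day 9 replicate 1 (0.21) or control day 9 replicate 2 (0.19).

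Most members differed more from control at day 18 than at day 15, which is given as a description because day 18 chose them. Named members with a large step between these days follow. SMED30017639, the member with the largest day 18 difference (3.18), had 11.2, 9.98 and 7.97 RPKM in p53(RNAi) at day 15 against 6.00, 6.66 and 4.47 RPKM in control. At day 18 it had 22.9 and 82.1 RPKM against 3.98, 5.01 and 4.14 RPKM. The higher value belongs to replicate 3, and control levels were themselves lower than the 12.1, 6.13 and 9.47 RPKM of day 3. The day 15 difference was 0.72 ± 0.27 (SE, adjusted p = 0.0338), a call lost without p53(RNAi) day 15 replicates 1 (0.62) or 2 (0.70), or control day 15 replicates 1 (0.76) or 3 (0.57). SMED30013673 (2.80 at day 18) had 28.0 and 84.6 RPKM in the same p53(RNAi) libraries against 5.15, 8.15 and 6.76 RPKM, with a day 15 difference of 0.72 ± 0.25 (SE, adjusted p = 0.0227) that was lost without p53(RNAi) day 15 replicate 2 (0.65) or control day 15 replicate 3 (0.57).

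SMED30014642 (2.47 at day 18) had 13.0 and 17.4 RPKM in p53(RNAi) at day 18 against 2.66, 2.52 and 1.82 RPKM in control, and 3.54, 3.21 and 2.90 RPKM against 3.17, 3.55 and 2.82 RPKM at day 15. Its libraries overlapped control at day 15 and the difference was 0.02 ± 0.17 (SE, adjusted p = 0.957). It has no description. The adipocyte plasma membrane-associated protein homolog (SMED30009611) stood at 0.29 at day 15 and 1.56 at day 18, with its day 15 call lost without p53(RNAi) day 15 replicate 2 (0.21) or control day 15 replicates 2 (0.27) or 3 (0.25). Cytochrome P450 2J6 (SMED30035750), of a family that oxidises lipids and foreign compounds, stood at 0.29 at day 9, 0.23 at day 15 and 1.06 at day 18. Only the day 9 value passed, and not without p53(RNAi) day 9 replicate 1 (0.20) or control day 9 replicate 3 (0.20).

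Macrophage-expressed gene 1 encodes a pore-forming protein of innate immunity in animals, and 2 of its transcripts are members. Of the 15 described transcripts of the immunity list, 8 were called higher and 2 lower at day 15 of p53(RNAi). Beside them stood 16.2% and 18.2% of all tested transcripts. SMED30011264 was the only member called lower at day 3, with 10.9, 9.98 and 9.89 RPKM in p53(RNAi) against 16.3, 12.6 and 15.7 RPKM in control, a difference of -0.51 ± 0.10 (SE, limma adjusted p = 0.00331) that no longer passed without control day 3 replicate 1 (-0.44). It had 12.0, 12.2 and 11.2 RPKM at day 15 against 11.2, 8.94 and 10.2 RPKM, and 23.3 and 20.2 RPKM at day 18 against 7.42, 8.94 and 6.53 RPKM. Control levels fell between day 3 and day 12, by 0.50. SMED30035691 had 6.63 and 6.11 RPKM at day 18 against 2.43, 2.64 and 2.17 RPKM, and stood at 0.40 at day 15. In chd4(RNAi) at day 12 they stood at -0.33 and -0.34. The call of SMED30011264 there was lost without chd4(RNAi) day 12 replicate 1 (-0.25) or control day 12 replicate 3 (-0.27). Another transcript of this description, SMED30030421, is not a member and stood at -0.20 at day 15 in p53(RNAi) and 1.02 in chd4(RNAi) at day 12.

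Whether the members were changed in p53(RNAi) only was asked in chd4(RNAi) before day 15. No member was called in either direction at day 3, beside 0.179% of all tested transcripts higher and 0.159% lower. At day 6, 5 members were called higher and 3 lower, beside 3.11% and 3.84% of all. At day 9, 36 (24.0%) were called higher and 19 (12.7%) lower, beside 13.1% and 12.5% of all, and at day 12, 37 (24.7%) and 14 (9.33%), beside 17.2% and 16.6%. The medians were 0.03, 0.04, 0.08 and 0.09 at days 3, 6, 9 and 12. Among the transcripts at 2 RPKM or more the shares were 16.5% higher and 15.5% lower at day 9, and 21.4% and 20.7% at day 12, so that the members' share called higher at day 12 was near that of the transcripts they came from. The class from day 9 held 22 of the 37. The counts of day 6 moved most with single libraries, to 2 higher without chd4(RNAi) day 6 replicate 1, to 3 higher without chd4(RNAi) day 6 replicate 2, and to 1 lower without chd4(RNAi) day 6 replicate 3 or control day 6 replicates 1 or 2. The 19 lower at day 9 were 11 without chd4(RNAi) day 9 replicate 3.

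The knockdowns were compared directly at day 12. p53(RNAi) exceeded chd4(RNAi) in 99 members (66.0%) and was below it in 3 (2.00%), beside 14.8% and 12.8% of all tested transcripts, with a median of 0.44. All 22 members of the class from day 6 passed, and 47 of 60 from day 9, 17 of 22 from day 12, 5 of 20 from day 15 and 8 of the 26 others. The same p53(RNAi) libraries of day 12 helped to set these classes, so the order of these counts is partly built in. P2X purinoceptor 4 differed most among the described members, by 1.84 ± 0.10 (SE, limma adjusted p = 9.82e-18), followed by carbamoyl-phosphate synthase at 1.66. Carboxypeptidase A1 (0.22, adjusted p = 0.0802), CNNM4 (0.11) and RNF167 (0.15) did not pass. The 3 members below chd4(RNAi), SMED30006763, SMED30031409 and SMED30002525, stood at -0.52, -0.52 and -0.39, were named after their values were seen, and have no description. At day 3 the same comparison gave 1 member higher and 2 lower, beside 0.494% and 1.61% of all. It gave 28 higher and 7 lower at day 6, beside 4.89% and 5.08%, and 72 higher and 2 lower at day 9, beside 14.7% and 12.5%.

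Control worms were compared with themselves to see how members moved over time without either knockdown. From day 3 to day 12, 15 members (10.0%) were higher at day 12 and 16 (10.7%) lower, beside 5.66% and 7.09% of all tested transcripts, and the median was 0.04. Adenosylhomocysteinase B fell by 0.53, sulfate transporter fell by 0.51 and kallikrein-13 by 0.50, and the call of kallikrein-13 was lost without control day 12 replicate 1 (-0.34). The call of sulfate transporter was lost with only the compared groups fitted. None of the 22 members from day 6 rose in control over these days and 5 of them fell. The control libraries of day 12 helped to set that class, which favours low control values there.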

How the data were processed

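Whole-worm poly(A) RNA was sequenced as stranded 50-base single reads. The authors used CASAVA 1.8.2 and aligned to assembled transcripts with Bowtie, allowing 2 mismatches and keeping reads that matched up to 5 sites. The deposited values are RPKM per transcript and library. How reads were scaled to RPKM is not given in the sources used here. Similar transcripts may share reads. The authors tested counts with edgeR, which were not used here. Depth came from the smallest steps between values. For 128 members read counts could be worked out, with a median of 172 reads over members and as few as 2 in a library.

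limma 3.58.1 (R 4.3.3) with an intensity trend was fitted to log2(RPKM + 0.5) of all 50 libraries in 17 groups, over transcripts of 1 RPKM or more in at least 2 libraries, with Benjamini-Hochberg adjustment. It was tested on simulated data. The contrasts p53(RNAi) day 18 and chd4(RNAi) day 15 chose the members and have no test. Low members are understated by the added 0.5. The members, gene lists and tests were chosen with earlier results of these data known. Named were the 12 largest day 18 differences, every described member, the 5 most abundant in control, the 6 with the largest day 9 difference among the 22 tied at the most days called, those next to each limit, and the targeted genes. Lists were made from words in the descriptions that the study gave to 1605 transcripts, 47 of them members, and the marker lists from its in situ patterns. Descriptions were given only for transcripts the study had called changed, and most genes screened in situ were ones it had called lower. Counts over these lists are thus shaped by those earlier calls. The alternatives tried were the added value, filter, scaling, replicate block, groups fitted and each library left out.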

Additional observations from a re-analysis of the deposited data

Results flagged for a closer look

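The p53(RNAi) difference from control was larger at day 15 than at day 3 in 109 members by limma's test of the change between the days (adjusted p under 0.05), with a median change of 0.71 on the log2 scale. Between the knockdowns at day 12, 99 members were higher and 3 were lower in p53(RNAi) than in chd4(RNAi). Groups of 3 libraries or fewer were not searched for outlying samples.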

How the results depend on the processing

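Each count was recomputed with an added value of 0.1 or 2, without the filter, with median-ratio scaling, with a replicate block, with only the compared groups fitted, and without each library. Members called higher in p53(RNAi) numbered 20 to 25 at day 6, 78 to 92 at day 9, 95 to 105 at day 12 and 115 to 123 at day 15 with 1 library left out, and 20, 63, 100 and 128 with only the compared groups fitted. At day 3 the range was 0 to 1, and 1 with the replicate block. In chd4(RNAi) at day 6 the range was 2 to 7 higher and 1 to 3 lower, and at day 9 it was 11 to 17 lower. The fit of only the compared groups gave 2 higher at day 6 and 8 lower at day 12. Fewer libraries set the spread in that fit, and what moved its counts was not tested. Leaving out 1 library gave 84 to 100 members higher in p53(RNAi) than in chd4(RNAi) at day 12 and 99 to 111 for the growth from day 3 to day 15. The count called from day 9 on was 82, between 73 and 83 without 1 library and 57 with only the compared groups.

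The rule gave 150 members under each alternative except an added value of 2, which left 146, but not the same ones: 138 were shared at 0.1, 116 at 2, 148 with scaling, and 121 to 142 without 1 library, the lowest without p53(RNAi) day 18 replicate 3. Of 335 calls of named members 55 were lost under at least 1 alternative and none changed sign. The losses given above are mostly those with 1 library left out. Fitting only the compared groups also lost some calls. Among them were the day 9 calls of plastin-2, calcium-transporting ATPase 3, whirlin and band 3, and the day 6 call of calpain-5. Correlations of same-numbered deviations ran from -0.077 to 0.26. Unlike numbers were not compared, so these values do not settle whether replicate numbers pair the libraries. The replicate block moved the counts to 25, 91, 113 and 125 at days 6 to 15. Low members had few reads, and p53(RNAi) day 18 had 2 libraries, so values there carry the least support.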
